A study of Mus musculus with 21 samples.

Results

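On mouse chromosome 15, 16497 c-MYC peaks narrower than 8000 bp were listed in fibroblasts that carry Hsf1. They were taken from the wild-type (WT) peak list as every peak on that chromosome under the width limit, out of 220037 WT peaks in all, and were set against the 190272 peaks chosen the same way on the other 18 autosomes. A further 1476 chromosome 15 peaks were 8000 bp or wider and are described beside the members. The widest member spanned 7995 bp and the narrowest peak left out spanned 8001 bp. Peaks of 7000 to 8000 bp had a median height of 9 coverage steps, as had those of 8000 to 9000 bp, and 14.96% of the former (n = 528) and 19.1% of the latter (n = 361) lay near gene starts.

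The cells were immortalized mouse embryonic fibroblasts (MEFs). c-MYC binding was measured by CUT&RUN, where a nuclease held at the protein by an antibody cuts out the DNA around it, in Hsf1 WT cells given ethanol for 7 days and in Hsf1 CKO cells, in which Hsf1 was deleted by 4-hydroxytamoxifen (4-OHT) over 7 days. The antibody is labelled as raised against c-Myc/N-Myc. The labels give 2 libraries per genotype and 1 IgG library from a mixture of both genotypes, but there was 1 peak list per genotype, so no value on peaks has a replicate error. RNA was sequenced in 12 libraries. The LacZ line stably carries LacZ as a control protein and the GCN5 line V5-GCN5, and each received 10 nM of control siRNA (siControl) or of siRNA against Hsf1 (siHsf1) for 2 days, with 3 libraries per combination. Whether these lines and the CUT&RUN cells descend from the same culture is not stated in the labels, and each line is 1 line.

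c-MYC is a basic helix-loop-helix leucine zipper protein that pairs with MAX and binds E-box DNA, with CACGTG as its best-known site, mostly at the promoters of active genes. Its targets are known for ribosome production, translation, metabolism and cell division. HSF1 is the factor that drives the heat-shock response, and GCN5 (gene Kat2a) is a histone acetyltransferase. The genes of c-MYC and HSF1 themselves both lie on mouse chromosome 15.

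The promoters under the tallest members are shown here because most of the tallest members lay near gene starts. The 250 bases before the annotated start are given from RefSeq (GRCm38.p6), for the 5 tallest members at a start whose gene has an entry with the same start and no other gene in that stretch. The sixth is the stretch before an alternative start of Tef, which lies under the tallest member of all. The motif CACGTG, which reads the same on both strands, is in capitals.
Atf7, chr15:102625465-102625714, minus strand: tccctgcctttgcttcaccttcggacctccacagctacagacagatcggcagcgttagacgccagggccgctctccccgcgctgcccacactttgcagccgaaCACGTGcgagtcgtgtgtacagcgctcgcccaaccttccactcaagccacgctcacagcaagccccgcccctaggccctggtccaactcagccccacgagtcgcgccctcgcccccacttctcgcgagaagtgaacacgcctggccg
Tars, chr15:11399659-11399908, minus strand: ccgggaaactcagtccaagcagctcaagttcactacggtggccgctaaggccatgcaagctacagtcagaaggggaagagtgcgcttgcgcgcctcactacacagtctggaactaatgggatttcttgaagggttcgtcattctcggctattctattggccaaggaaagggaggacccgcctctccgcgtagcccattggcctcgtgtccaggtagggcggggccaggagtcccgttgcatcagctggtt
Txn2, chr15:77928995-77929244, minus strand: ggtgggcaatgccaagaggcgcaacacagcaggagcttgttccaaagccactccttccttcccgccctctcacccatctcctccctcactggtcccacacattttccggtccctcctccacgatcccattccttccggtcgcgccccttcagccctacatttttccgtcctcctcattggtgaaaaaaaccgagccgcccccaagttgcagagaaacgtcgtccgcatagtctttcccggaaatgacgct
Rbx1, chr15:81466066-81466315, plus strand: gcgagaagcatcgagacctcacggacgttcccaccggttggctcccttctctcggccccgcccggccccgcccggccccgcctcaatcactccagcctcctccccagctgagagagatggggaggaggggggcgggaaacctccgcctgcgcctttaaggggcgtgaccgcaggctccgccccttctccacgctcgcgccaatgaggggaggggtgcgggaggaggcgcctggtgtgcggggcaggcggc
Bcdin3d, chr15:99474731-99474980, minus strand: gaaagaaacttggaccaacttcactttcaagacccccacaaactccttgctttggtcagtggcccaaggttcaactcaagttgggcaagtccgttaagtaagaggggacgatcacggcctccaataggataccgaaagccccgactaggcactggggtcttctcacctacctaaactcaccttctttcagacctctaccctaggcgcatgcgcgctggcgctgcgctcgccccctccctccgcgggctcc
Tef, chr15:81811164-81811413, plus strand: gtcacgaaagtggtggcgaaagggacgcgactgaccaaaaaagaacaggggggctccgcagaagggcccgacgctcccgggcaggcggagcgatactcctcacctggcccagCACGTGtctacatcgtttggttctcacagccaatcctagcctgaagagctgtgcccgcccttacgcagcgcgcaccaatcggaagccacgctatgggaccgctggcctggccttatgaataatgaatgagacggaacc
CACGTG was present once in the Atf7 stretch, 141 bases before the start, and once in the Tef stretch, 132 bases before the start. The other 4 stretches held none. The middle of the summit lay outside each of the 6 stretches. It was 280 bases before the start at Atf7 and 286 at Tef. At Tars, Txn2, Rbx1 and Bcdin3d it was 106, 173, 181 and 302 bases past the start. The sequence at the summits was not examined, so these stretches do not show whether the motif was present there. GC content of the 6 stretches ran from 56.8% (Bcdin3d) to 72.4% (Rbx1). Over the 300-base RefSeq promoter windows of chromosome 15, 6.94% of 936 held CACGTG, beside 7.15% of 30460 on the other autosomes and 7.14% over all 31396.

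Among promoter windows that overlapped a peak under 8000 bp, 5.99% of 451 on chromosome 15 held the motif (95% Wilson interval 4.15% to 8.57%), beside 9.46% of 13144 on the other autosomes (8.97% to 9.97%). Windows with no peak held it in 5.38% of 130 on chromosome 15 and 5.29% of 16818 elsewhere. Under peaks of 15 or more height steps the share was 9.68% of 62 windows on chromosome 15 (4.51% to 19.5%) and 18.5% of 1317 on the other autosomes (16.4% to 20.6%), with overlapping intervals. The median GC content under those tall peaks was 62.7% in both sets. Under peaks of 10 to 14 steps it was 56.3% on chromosome 15 and 62.3% elsewhere. Windows with a peak of 8000 bp or wider held the motif in 8.73% of 355 on chromosome 15 (6.22% to 12.1%). On the other autosomes it was 9.24% of 498 (7.00% to 12.1%), with overlapping intervals. The lower share on chromosome 15 therefore applies to peaks under 8000 bp. These are matches of letters in a window, and windows of neighbouring starts can overlap.

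Peak density was higher on chromosome 15 than on any other autosome. The members reached 164 peaks per Mb (exact 95% Poisson interval 161 to 166), measured over the 101 Mb between the first and last annotated gene. The other 18 autosomes ran from 19.4 peaks per Mb on chromosome 12 to 150 on chromosome 8 (148 to 152), with a median of 80.1, so chromosome 15 stood at 2.04 times that median. It held 7.98% of the autosomal peaks on 4.20% of the autosomal span. Its wide peaks stood further apart from the rest: 53.6% of the 2752 autosomal peaks of 8000 bp or more lay on this chromosome. Intervals here and below cover counting error only.

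Among peaks under 8000 bp, the excess was larger away from gene starts than near them. There were 154 members per Mb more than 1000 bp from any annotated start, the highest value among the 19 autosomes. Near a start there were 9.13 per Mb, the 6th highest. These densities were 2.10 and 1.39 times the medians of the other autosomes. Consequently 5.58% of the members (921 peaks; Wilson interval 5.24% to 5.94%) overlapped a window of 1000 bp on each side of a start, the lowest share of the 19. Both that rank and the smaller excess near starts depend on the width limit. With peaks of all widths, 1335 lay near a start. The share was then 7.43% (7.05% to 7.82%), the 14th highest, and chromosome 3 was lowest with 6.16%. For peaks under 8000 bp the other autosomes ran from 5.96% on chromosome 3 (interval 5.66% to 6.29%) to 15.7% on chromosome 7, so that chromosome 15 and chromosome 3 had overlapping intervals. Gene starts were not unusually sparse, at 14.8 per Mb beside a median of 15.9. Midpoints of the members fell inside the start windows 0.907 times as often as the share of the span in those windows would give, whereas the same ratio was 1.33 to 3.31 on the 18 others.

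The members were otherwise spread over genes and the space between them much as the sequence is. Gene bodies away from starts held 43.2% of the members and the space between genes 51.2%, beside 46.4% and 44.9% on the other autosomes. Gene bodies took 47.9% of the span of chromosome 15 and 48.5% of the span of the others. Neighbouring members were a median of 1479 bp apart, where the medians of the other autosomes ran from 2701 to 28842 bp. WT peaks of all widths covered 65.7% of chromosome 15, and between 3.78% and 36.3% of each other autosome.

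**Figure D1:**
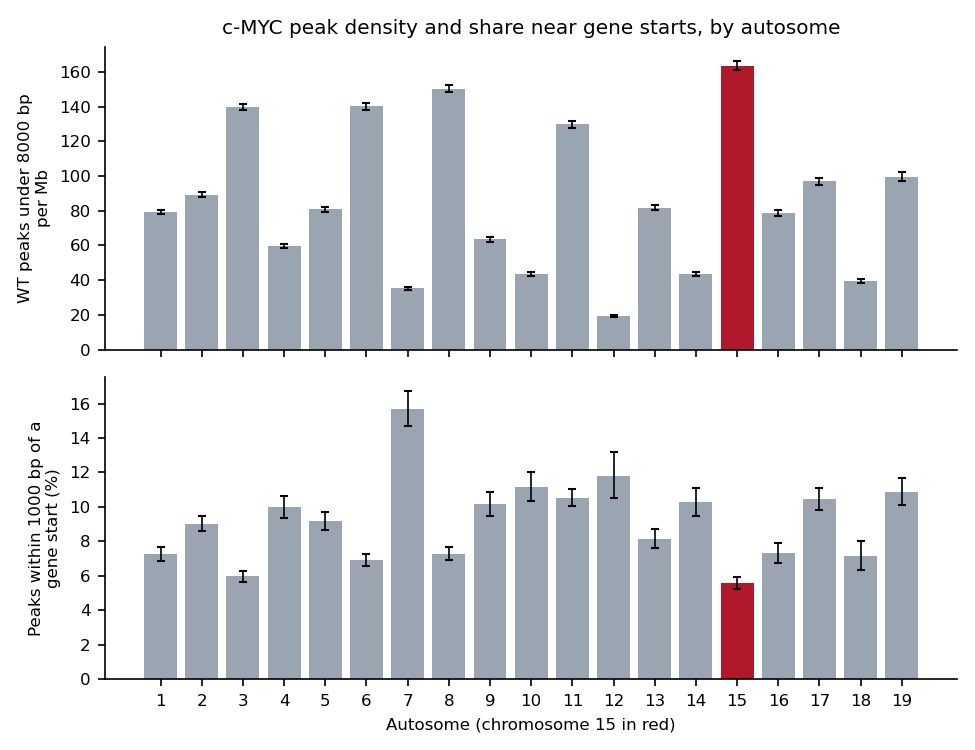
WT c-MYC peaks under 8000 bp per Mb (top, bars with exact 95% Poisson intervals) and the percentage of those peaks within 1000 bp of a gene start (bottom, bars with 95% Wilson intervals) for each of the 19 autosomes. Chromosome 15, in red, has the highest density, 164 per Mb, and the lowest share near starts, 5.58%.

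Along the chromosome, high density was found nearly everywhere. In the 99 complete bins of 1 Mb between the first and last gene, members numbered 65 to 204, with a median of 171. Of these bins, 97 held more peaks than 81, the median over the other autosomes of their typical bin, and 63 held more than 162, the typical bin of chromosome 8. Only 104 of 2276 bins on the other autosomes (4.57%) exceeded the chromosome 15 median. The coefficient of variation over bins was 18.3%, the lowest of the 19 autosomes, beside 20.8% to 93.9% on the others. Counting error alone would give 7.80%.

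The number of members per bin did not follow genes, although coverage by peaks did. Over the 99 bins, which share 1 library list, the number of members ran against the number of gene starts (r = -0.68), whereas on the other autosomes this correlation lay between -0.01 and 0.78. The 24 bins with the fewest gene starts held a median of 179.5 members, and the 24 with the most held 143. The 2 bins without any gene start held 171 and 175 members, beside a median of 45 in 38 such bins elsewhere. Wide peaks ran the other way (r = 0.75 with gene starts): 629 lay in the gene-rich bins and 95 in the gene-poor ones. Coverage by peaks of all widths rose with gene starts (r = 0.66, beside -0.01 to 0.79 on the other autosomes). Its median was 75.6% in the gene-rich bins and 46.9% in the gene-poor ones. Members of 10 or more steps also rose with gene starts (r = 0.62). Where peaks join into wide ones, fewer members remain to be counted, and with wide peaks counted too the correlation with gene starts was -0.57.

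The bin with the most members, 204, lay at 90 to 91 Mb and held 9 gene starts, 7 wide peaks and 2 peaks of the CKO list. The bin with the fewest, 65, lay at 97 to 98 Mb. It held 26 gene starts and 38 wide peaks, and peaks covered 84.7% of it. It was part of the 5 Mb bin with the fewest members, 427 at 95 to 100 Mb, where 179 wide peaks lay. The other 18 bins of 5 Mb held 698 to 966 members each. No bin of 1 Mb had a median height below 7 steps, and the highest bin median was 9.

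**Figure D2:**
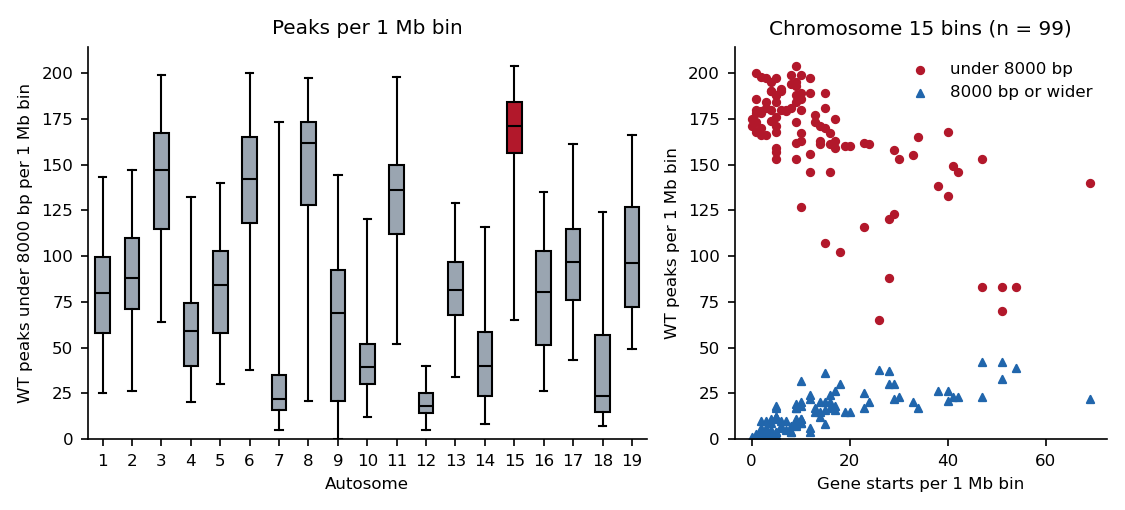
Left, WT peaks under 8000 bp per 1 Mb bin for each autosome (box, quartiles and median; whiskers, fewest and most); right, members and wide peaks in each of the 99 chromosome 15 bins against gene starts in the bin. The chromosome 15 box has a median of 171, and in the right panel members fall while wide peaks rise with the number of gene starts.

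Among peaks under 8000 bp, heights on chromosome 15 were shifted upward in the low and middle range but not among the tallest peaks. The width limit bears on the tallest: 8.21% of chromosome 15 peaks were wider, beside 0.04% to 2.73% on the other autosomes. At starts of expressed coding genes of chromosome 15, the median tallest height was 15 steps with a wide peak and 12 with only members. The authors' maximal coverage of a peak took only whole multiples of a fixed amount in every peak of the list (within 0.02 of a multiple), so height is given in these steps. The median was 7 steps on chromosome 15 and 6 on each of the other 18 autosomes, and the mean was 7.67 beside 6.49. Away from starts the medians were 7 and 6, and near starts 9 and 7. A height of at least 10 steps was reached by 13.3% of the members and by 5.73% of the peaks elsewhere. The range from 4 to 8 steps held 73.1% of the members and 88.9% of the other peaks. Members were also wider, with a median of 2411 bp beside 1807 bp, and their summed coverage was the highest of the autosomes, with a median of 5.38 units beside 2.99 to 3.68 units on the others.

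In contrast to the low and middle heights, the share near starts among the tallest peaks was not told apart from that elsewhere. With only 40 such members the interval was wide, so this does not show equal placement. Of the members with 20 or more steps, 77.5% (n = 40; interval 62.5% to 87.7%) lay near a start, beside 72.5% of 505 peaks on the other autosomes (68.4% to 76.2%). The frequency of such peaks under 8000 bp was similar, at 0.242% of the members and 0.265% of the other peaks. It was not computed with wide peaks included. At 9 to 12 steps the share near a start was 8.30% (n = 4167) on chromosome 15 and 19.3% (n = 17597) elsewhere. At 3 to 5 steps it was 1.75% (n = 1484) and 5.31% (n = 62219), and the intervals of these 2 pairs did not overlap. At 13 to 19 steps it was 40.3% (n = 236; 34.2% to 46.6%) and 53.3% (n = 2265; 51.3% to 55.4%), again apart, so that the intervals overlapped only at 20 steps or more.

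**Figure D3:**
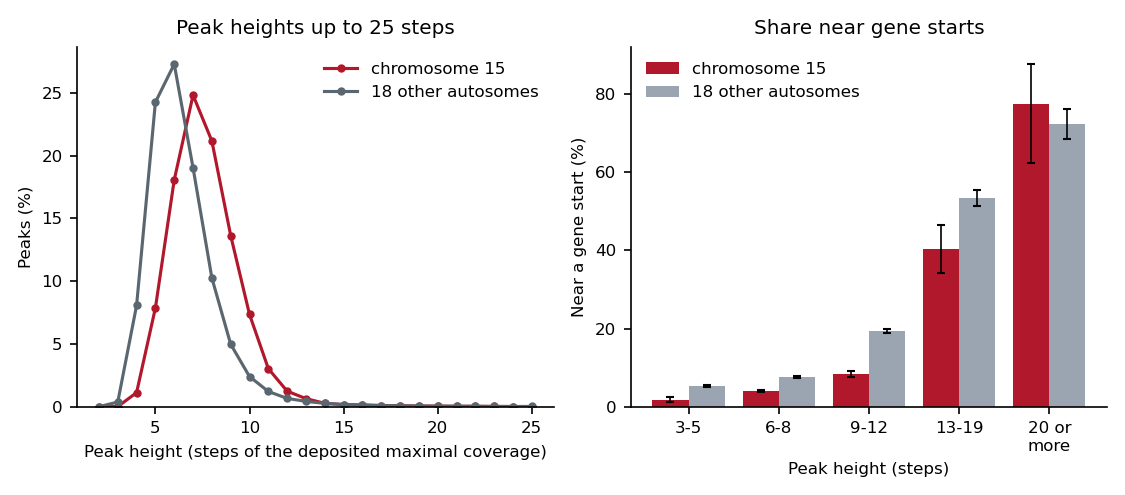
WT peaks under 8000 bp. Left, percentage of peaks at each height up to 25 steps of the deposited maximal coverage, chromosome 15 (red) and the other 18 autosomes (grey). Right, percentage near a gene start by height, bars with 95% Wilson intervals. The chromosome 15 curve is shifted to a median of 7 steps from 6, and the shares near starts differ below 20 steps but reach 77.5% and 72.5% at 20 steps or more.

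The 5 tallest members at gene starts belonged to genes of amino acid synthesis, transcription and ribosome production. The member at Pycrl, an enzyme of proline synthesis, reached 51 steps (chr15:75919274-75922454), with its summit 164 bp downstream of the start. Those at Atf7, a transcription factor of the ATF/CREB family, and Utp23, a factor of small ribosomal subunit assembly, reached 48 and 46 steps. Hgh1, a factor for folding of translation elongation factor 2, had a member of 44 steps, and Rpl30, a protein of the large ribosomal subunit, one of 39 steps. All 5 overlapped a CKO peak.

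The tallest member of all, with 58 steps (chr15:81809656-81817009), was counted as away from starts because no start of the count table lay within 1000 bp of it. Its summit lay 8456 bp downstream of the table's start of Tef, a transcription factor of circadian rhythms. The RefSeq promoter table holds a second start of Tef 286 bases from that summit, and its sequence is the sixth printed above. The next tallest members away from starts reached 28 steps in the body of Cyb5r3, 26 in that of Krt78, 24 in that of Ttll12 and 23 at 21707 bp upstream of Gm31286. Adding all starts of the promoter table, several per gene, raised the share of members near a start to 6.27%, still the lowest of 19, beside 6.72% to 17.3% on the other autosomes.

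The starts of the factors themselves carried peaks of unlike height. The Myc start lay in a peak of 9260 bp and 10 steps, too wide to be a member. The start shared closely by Hsf1 and the ribosome assembly gene Bop1 lay in a member of 4901 bp and 21 steps, among the 40 members of 20 or more. Both peaks overlapped a CKO peak.

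Chromosome 15 was dense in peaks in the CKO list too, although that list was far shorter. It held 687 peaks on chromosome 15 (6.81 per Mb, 6.31 to 7.34), second to chromosome 11 with 7.01 per Mb and an overlapping interval, and the remaining autosomes went down to 0.658 per Mb. Near-start CKO peaks made up 49.3% of those on chromosome 15 (45.6% to 53.1%), the lowest share of 19, beside 55.8% to 78.8% elsewhere. CKO peaks followed genes along the chromosome (r = 0.88 with gene starts over the 99 bins), with 481 in the gene-rich and 8 in the gene-poor 24 bins, and 27 bins held none. Of the chromosome 15 CKO peaks, 95.8% overlapped a WT peak of any width by at least 1 bp and 42.5% overlapped a member. On the other autosomes these shares were 93.3% and 85.5%.

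Members that overlapped a CKO peak were few and tall, as were such peaks on the other autosomes. They numbered 294, or 1.78% of the members, beside 2.51% of the peaks on the other autosomes. Their median height was 12 steps and 56.1% lay near a start, beside 7 steps and 4.67% for the members without a CKO peak. On the other autosomes, peaks that overlapped a CKO peak had a median of 11 steps, and 70.8% lay near a start. The scaling of the 2 lists against each other is not given in the sources used here, so heights were not compared between genotypes.

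Genes of chromosome 15 were also expressed at a higher typical level than those of any other autosome in these cells. Over the 457 protein-coding genes that passed the filter on low counts, the median level in siControl LacZ libraries was 4.30 ± 0.04 log2 CPM per kb of gene length (SD, n = 3), and the medians of the other 18 autosomes had a median of 3.19. The difference was 1.11 ± 0.04 on the log2 scale. It was 1.12 ± 0.02 in siControl GCN5, 1.14 ± 0.05 in siHsf1 LacZ and 1.08 ± 0.04 in siHsf1 GCN5 libraries. Chromosome 15 was the highest in 12 of 12 libraries, at 2.07 to 2.27 times the typical autosome, and the gap to the next autosome was 0.47 to 0.58 on the log2 scale. Without the filter, so that silent genes counted too, chromosome 8 stood above it in siControl LacZ (1.77 ± 0.03 beside 1.61 ± 0.05, SD, n = 3).

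A level above the median gene of the other autosomes was found along the whole chromosome. In consecutive segments of 20 Mb the median level of coding genes was 3.58, 4.22, 3.92, 4.24, 4.62 and 4.56 log2 CPM per kb, with 37 to 154 genes each. Coding genes of the other autosomes had a median of 3.25. Every segment thus lay above it, the first by the least. That first segment lay below the medians of chromosomes 8 (3.73), 3 (3.70) and 11 (3.63).

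Across the 19 autosomes the level and the peak density went together (r = 0.85, Spearman's rho = 0.80), also without chromosome 15 (r = 0.83, n = 18). The density of gene starts showed no such relation with peak density (r = 0.03). The points share 1 peak list and 1 set of libraries, and these values are descriptions. Chromosome 15 stood above the others at similar peak density: chromosome 8 had 150 peaks per Mb and a level of 3.73 ± 0.04, and chromosome 6 had 140 per Mb and 3.35 ± 0.02.

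**Figure D4:**
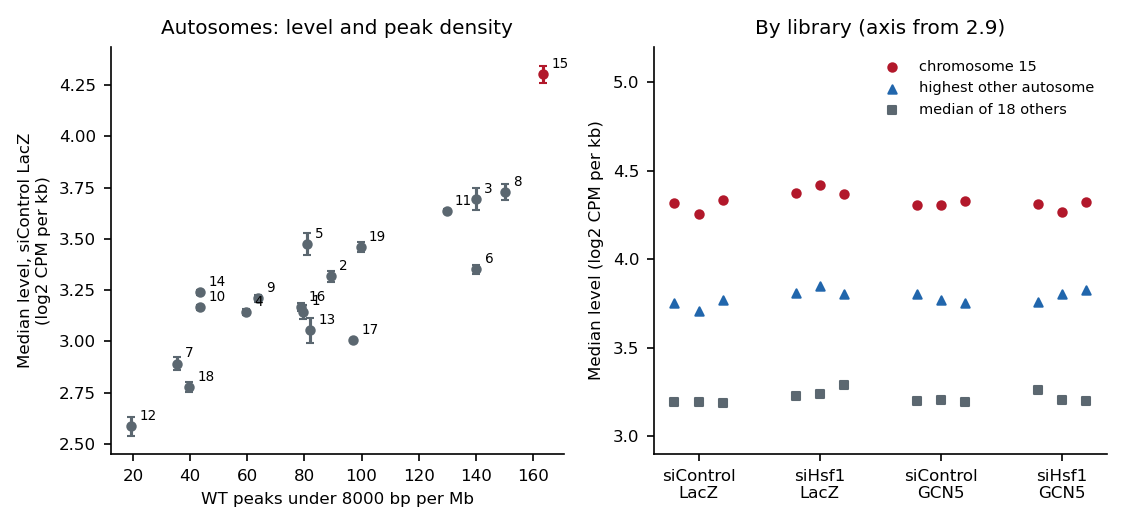
Left, median level of coding genes in siControl LacZ (log2 CPM per kb, mean and SD of 3 libraries) against WT peaks under 8000 bp per Mb, one point per autosome with its number; right, the median of chromosome 15, of the highest other autosome and of the 18 others in each of the 12 libraries, on an axis that starts at 2.9. Chromosome 15 lies at the upper right at 4.30 and is the highest in every library.

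Nearly all expressed coding genes of chromosome 15 had a WT peak within 1000 bp of their start: 96.3%, the highest share of 19. The others ran from 52.9% to 93.5%. WT peaks of all widths covered 65.7% of chromosome 15, so many windows of this size would touch a peak wherever they lay. The share expected from coverage alone was not computed, so 96.3% does not by itself show a preference for starts. The peak was a wide one for 48.1%, where no other autosome exceeded 15.3%. Genes with a wide peak had a median level of 4.50 ± 0.02 (SD, n = 3 siControl LacZ libraries) log2 CPM per kb, and those with only members one of 4.18 ± 0.02. The 17 genes without a peak had 4.83 ± 0.09, so that the level did not rise with the peak class. On the other autosomes it did, from 2.17 ± 0.03 without a peak to 3.47 ± 0.02 with a peak under 8000 bp and 4.21 ± 0.04 with a wide one. A CKO peak stood at the start of 69.4% of the chromosome 15 genes, again the highest share, beside 17.9% to 54.6%.

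The number of copies of the chromosome in these cells and the coverage outside peaks were not measured in the files used here, so the part of copy number or of background in the density was not tested. The measurements that bear on the density are these. It was high in 97 of 99 bins, with or without genes. Median heights were higher by 1 step away from starts and by 2 near them. Among peaks of 20 or more steps the intervals of the share near starts overlapped those of the other autosomes, but only 40 members were that tall. Transcript levels were 2.07 to 2.27 times the typical autosome in libraries of both lines. The peak ratio of 2.04 and this level ratio are on different scales, since peaks are counted after a threshold and merge when dense: the ratio of density was 1.49 with peaks at most 1000 bp apart counted as 1, and 2.98 among peaks of at least 6 steps. The summed coverage of the members per Mb was 3.56 times the median of the other autosomes.

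Total gene counts ran from 3693554 to 8162787 per library, and the LacZ line was sequenced more deeply than the GCN5 line, so depth and line cannot be told apart. Fibroblast markers (8 of 8 detected) summed to 6101 to 10227 CPM, and haematopoietic markers to 4.56 to 14.3 CPM with 4 of 7 at 0 in every group. Epithelial markers summed to 30.9 to 62.3 CPM and endothelial ones to 0.27 to 1.40 CPM. Neural markers differed between the lines, at 14.6 to 15.8 CPM in siControl LacZ and 37.8 to 45.3 CPM in siControl GCN5. The labels call the libraries replicates without naming separate cultures, so p-values measure the spread between libraries. Results are given with scaling by ERCC spike-in RNA, which does not assume a constant total, and beside it with TMM, which assumes that most genes do not change. The spike-in share varied within groups, and the spread between libraries after spike-in scaling (biological coefficient of variation 0.274) exceeded that after TMM (0.089). Spike-in scaling placed the median log2 fold change of all genes at -0.35 for the knockdown in the LacZ line and -0.04 for that in the GCN5 line, with -0.40 between the lines and 0.32 for the interaction. Near-identical copies make counts uncertain for the Rpl genes, Hnrnpa1, Tuba1c and the Ly6 and Apol families.

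The knockdown of Hsf1 is seen in Hsf1 itself, a chromosome 15 gene. Hsf1 stood at 128, 128 and 134 TMM-scaled CPM in the siControl LacZ libraries and 57.6, 55.4 and 47.8 in the siHsf1 LacZ libraries. In the GCN5 line it stood at 137, 121 and 138 and at 67.9, 74.5 and 73.0. Each siHsf1 library lay below every siControl library of its line. The log2 fold change in LacZ was -1.65 ± 0.33 (SE) with spike-in scaling (edgeR quasi-likelihood test, adjusted p = 0.00012) and -1.28 ± 0.08 with TMM (adjusted p = 2.55e-12). In the GCN5 line it was -0.93 ± 0.32 with spike-in scaling (adjusted p = 1) and -0.88 ± 0.08 with TMM (adjusted p = 8.19e-07).

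After knockdown of Hsf1 in the LacZ line, nearly all called chromosome 15 genes were lower with spike-in scaling, whereas with TMM they were split between both directions. With spike-in scaling 33 of 503 tested chromosome 15 genes were called (6.56%), 1 higher and 32 lower, where 7.02% of all 12187 genes were called (0.993% higher, 6.03% lower). With TMM 250 were called (49.7%), 129 higher and 121 lower, beside 40.6% of all genes (21.1% higher, 19.5% lower) and 34.9% to 44.9% of the genes on each other autosome. The median log2 fold change of chromosome 15 genes was -0.34 with spike-in scaling and 0.02 with TMM, beside -0.35 and 0.02 over all genes. The spike-in count rests on single libraries. It was 2 without siHsf1 LacZ replicate 3, 6 without siHsf1 LacZ replicate 2, and 144 without siHsf1 LacZ replicate 1. It was 4, 60 and 9 without siControl LacZ replicates 1, 2 and 3. Leaving out siControl GCN5 replicate 3 or siHsf1 GCN5 replicates 1, 2 or 3 gave 15, 16, 16 and 20.

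Gtse1, a regulator of microtubules and p53 in the G2 phase, stood at 118, 117 and 126 TMM-scaled CPM under siControl and 57.6, 62.3 and 58.3 under siHsf1, both in the LacZ line. The groups did not overlap, and its log2 fold change was -1.40 ± 0.33 (SE) after spike-in scaling (edgeR adjusted p = 0.0016) and -1.02 ± 0.07 with TMM. Bop1, a factor of large ribosomal subunit assembly, fell by 1.17 on the log2 scale (edgeR adjusted p = 0.0112). Nudcd1, Pus7l, a pseudouridine synthase, Cbx6, a Polycomb protein, Cenpm, a centromere protein, and Cela1, an elastase, fell by 1.17 to 1.38. Of the 20 named calls in this comparison, those of Hsf1 and Gtse1 held whichever of the 12 libraries was left out. The others were each lost in at least 1 such run, with edgeR adjusted p-values up to 0.333 (Ndrg1).

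Myc stood at 130, 142 and 147 TMM-scaled CPM under siControl and 99.4, 89.4 and 88.1 under siHsf1, both in the LacZ line. Its log2 fold change was -0.94 ± 0.32 (SE) after spike-in scaling (edgeR adjusted p = 0.0491) and -0.60 ± 0.08 (adjusted p = 7.17e-07) with TMM. The spike-in call was lost in 10 of 12 runs with 1 library left out. The exceptions were the runs without siControl LacZ replicate 2 and without siHsf1 LacZ replicate 1, and the highest adjusted p, 0.278, came without siHsf1 LacZ replicate 3. In the GCN5 line Myc stood at 129, 108 and 125 and at 158, 144 and 139 TMM-scaled CPM, with a log2 fold change of 0.28 ± 0.08 with TMM (edgeR adjusted p = 0.235).

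With spike-in scaling, 1 named gene was called higher. Apol9b, of the apolipoprotein L family, stood at 145, 156 and 146 TMM-scaled CPM under siControl and 360, 438 and 366 under siHsf1, both in the LacZ line. Its log2 fold change was 0.99 ± 0.32 (SE) after spike-in scaling (edgeR adjusted p = 0.0373) and 1.38 ± 0.07 with TMM, and the spike-in call was lost in 7 of 12 runs with 1 library left out.

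The counts of the chromosome 15 lists stand beside 6.03% lower and 0.993% higher over all genes with spike-in scaling, and 19.5% lower and 21.1% higher with TMM. The 14 genes of translation and RNA binding had 5 members lower and none higher with spike-in scaling, and 13 lower with TMM (median log2 fold change -0.83 and -0.47). Rpl8, a protein of the large ribosomal subunit, stood at 2010, 2453 and 1903 TMM-scaled CPM under siControl and 1197, 1256 and 1222 under siHsf1, both in the LacZ line, with no overlap. Rpl3, Rpl37 and Hnrnpa1, an RNA-binding protein of splicing, fell by 1.01 to 1.03 on the log2 scale with spike-in scaling. Of 8 genes of folding and tubulin 2 were lower, Cct5, a subunit of the cytosolic chaperonin, by 1.09 and Tuba1c by 0.94 (6 lower with TMM, list medians -0.68 and -0.33). Of 14 genes of replication and division 3 were lower, Gtse1, Cenpm and Xrcc6, a subunit of the Ku DNA repair complex (1 higher and 8 lower with TMM, medians -0.71 and -0.35).

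Of 22 genes of transcription and chromatin 3 were lower, among them Myc and Hsf1, itself the target of the siRNA. With TMM 4 were higher and 7 lower, and the list medians were -0.44 with spike-in scaling and -0.07 with TMM. Of 12 mitochondrial genes 1 was lower, Tst, a sulfurtransferase, a share near that of all genes (1 higher and 8 lower with TMM, medians -0.62 and -0.25). Genes of matrix, adhesion and fibroblast surface went the other way with TMM: 17 of 23 tested were higher and 2 lower, with a median of 0.41, whereas with spike-in scaling the median was 0.06 and 1, Ndrg1, was lower. Ghr, the growth hormone receptor, and Osmr, the oncostatin M receptor, had TMM log2 fold changes of 1.08 ± 0.10 and 0.90 ± 0.07 (SE; edgeR adjusted p = 6.03e-09 and 1.3e-10). With spike-in scaling their adjusted p-values were 0.159 and 0.318. Summed fibroblast markers also stood higher in siHsf1 LacZ libraries, at 8803 to 10227 CPM beside 6101 to 6880 CPM in siControl LacZ, and haematopoietic ones reached 14.3 CPM beside 8.65 CPM at most. Their part in the list's values was not tested.

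The class of peak at the start did not sort the genes by response. The median TMM log2 fold change was 0.10 for the 17 coding genes without a WT peak, 0.07 for the 220 with members and -0.02 for the 220 with a wide peak. With TMM, 62 genes with members were higher and 51 lower, and 59 with a wide peak were higher and 61 lower. Of the 17 without a peak, 5 were higher and 4 lower. Over all genes 21.1% were higher and 19.5% lower, and over all tested chromosome 15 genes 25.6% and 24.1%. Hnrnpa1 and Xrcc6, both lower, had no WT peak within 1000 bp of their start, and Hnrnpa1 had a CKO peak there.

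Among the 5 genes with the tallest members at their start and Tef, none was called after Hsf1 knockdown in LacZ with spike-in scaling. With TMM, 3 were called lower. Over all genes, 7.02% were called with spike-in scaling, and 19.5% were called lower with TMM (24.1% on chromosome 15). So few genes cannot be told apart from these shares. Pycrl stood at 121, 125 and 110 TMM-scaled CPM under siControl and 93.5, 104 and 93.6 under siHsf1, both in the LacZ line, and Hgh1 at 38.4, 46.1 and 42.5 and at 29.7, 32.2 and 26.3. Rpl30 stood at 515, 603 and 458 and at 342, 401 and 355. These 3 sets of groups were apart, with the siHsf1 libraries lower. Their edgeR adjusted p with TMM was 0.00307 for Pycrl, 0.000121 for Hgh1 and 7.85e-05 for Rpl30. Atf7 stood at 197, 137 and 187 and at 199, 180 and 187, and Utp23 at 30.5, 35.2 and 27.6 and at 32.4, 33.8 and 32.2, and their groups overlapped. Tef stood at 78.8, 79.5 and 83.5 and at 89.4, 91.2 and 86.5, with the siHsf1 libraries above the others, and was not called with TMM (log2 fold change 0.14, edgeR adjusted p = 0.0987).

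In the GCN5 line, no chromosome 15 gene was called after Hsf1 knockdown with edgeR and spike-in scaling, beside 0.041% of all genes (0.0328% higher, 0.00821% lower). At an unadjusted p under 0.05 there were 5. With TMM 2 were called, Hsf1 and Dazap2, a signalling adaptor, both lower (0.398%, beside 0.164% of all genes, 0.0656% higher and 0.0985% lower), and DESeq2 called 3. The TMM count was 1 without siControl GCN5 replicate 2 or 3 or siHsf1 GCN5 replicate 1 or 3, and 7 without siControl LacZ replicate 2. Dazap2 was named after its values were seen. The difference between the 2 knockdown effects, tested as an interaction, gave 0 calls on chromosome 15 with spike-in scaling (0.394% of all genes, 0.172% higher and 0.222% lower, and 31 chromosome 15 genes at an unadjusted p under 0.05). It gave 144 with TMM (28.6%, beside 22% of all genes, 11% in each direction) and 128 with DESeq2. Without siHsf1 LacZ replicate 1 the spike-in count was 10.

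Between the lines, the largest named differences on chromosome 15 were in HoxC and Ly6 genes. Under siControl, 11 genes were called between GCN5 and LacZ with spike-in scaling (2.19%, beside 1.5% of all genes, 0.542% higher and 0.96% lower), 4 higher and 7 lower in GCN5, and 69 with TMM (13.7%, beside 9.61% of all genes, 5.46% higher and 4.15% lower). All 4 higher genes were in the HoxC cluster of homeobox transcription factors, which set position along the body axis: Hoxc4, Hoxc6, Hoxc9 and Hoxc10. The last 3 lay below the level needed to be named by rule and were chosen after their values were seen. Hoxc4 stood at 0.824, 0.505 and 0.866 TMM-scaled CPM in siControl LacZ and 8.90, 6.23 and 5.53 in siControl GCN5, a log2 fold change of 2.86 ± 0.51 (SE; edgeR adjusted p = 8.22e-06). The spike-in count was 24 without siControl LacZ replicate 2 and 6 without siControl LacZ replicate 1 or 3. It was 20, 21 and 7 without siHsf1 LacZ replicates 1, 2 and 3, and 7 without siControl GCN5 replicate 2.

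The 2 largest decreases among the named genes in GCN5 were in the Ly6 family of anchored surface proteins. Ly6c1 stood at 72.6, 77.1 and 64.6 TMM-scaled CPM in siControl LacZ and 16.2, 22.5 and 22.1 in siControl GCN5, a log2 fold change of -2.24 ± 0.34 (SE; edgeR adjusted p = 5.39e-08). Ly6a, also known as Sca-1, stood at 331, 382 and 323 and at 102, 144 and 144, a log2 fold change of -1.82 ± 0.33 (edgeR adjusted p = 1.15e-05). The groups were apart for both, and these calls and that of Hoxc4 held whichever library was left out. Of the 23 tested genes of matrix, adhesion and fibroblast surface, Ly6a and Ly6c1 were the 2 called with spike-in scaling, and 4 were higher and 7 lower with TMM. No gene of the other lists was called with spike-in scaling. The calls of Nrbp2, Apol7a, Aqp5, a water channel, and Lynx1, lower by 1.12 to 1.33 on the log2 scale, were each lost in 5 to 9 of 12 such runs, with edgeR adjusted p-values up to 0.656. The median log2 fold change of chromosome 15 genes between the lines was 0.00 with TMM. The medians on the other autosomes ran from -0.11 to 0.05.

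**Figure D5:**
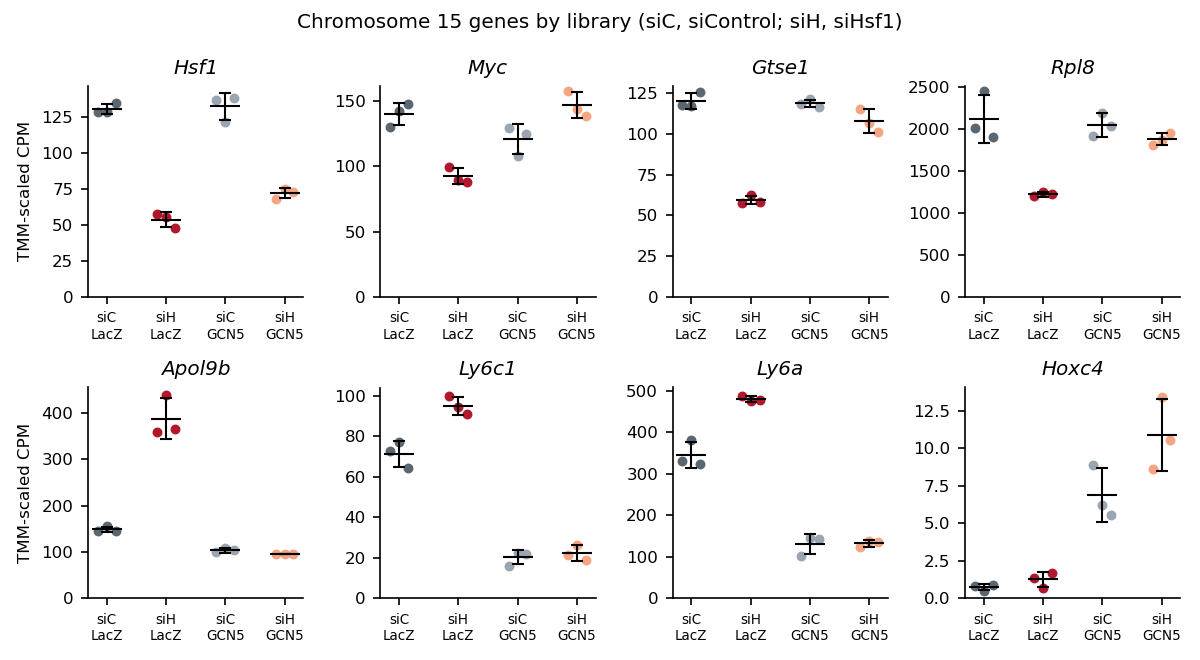
TMM-scaled CPM of 8 chromosome 15 genes in each of the 12 libraries (points) with the mean and SD of the 3 libraries of a group (bars); siC is siControl and siH is siHsf1. Hsf1 is lower after knockdown in both lines, Gtse1 and Rpl8 are lower and Apol9b higher in siHsf1 LacZ, and Ly6c1, Ly6a and Hoxc4 differ between the lines.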

How the data were processed

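The c-MYC peak lists deposited by the authors hold 1 list per genotype, and their names say SEACR stringent calls against IgG. Each peak carries signal in 2 columns made by the authors, the summed coverage and the maximal coverage, scaled by a factor not given in the sources used here. Whether libraries were pooled is not stated. The authors deposited raw counts per gene for the RNA libraries. Bowtie2, SEACR, HISAT2 and DESeq2, with mm10 and GRCm38, are named in the submitters' processing notes without versions.

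Gene starts, 1 per gene, came from the count table, and chromosomes from matching gene identifiers to RefSeq GRCm38.p6. Chromosome lengths and gaps were not used here, so the span from first to last gene replaced the planned length without gaps. Counts were tested with edgeR 4.0.16 in R 4.3.3 (robust quasi-likelihood, 4 group means, filterByExpr with minimum count 10, 12187 genes, two-sided, Benjamini-Hochberg over all genes, calls under 0.05), scaled by 23 ERCC subgroup B transcripts that were listed from memory and are of equal amount in the mix added to siControl and that added to siHsf1 libraries. TMM scaling, DESeq2 1.42.0 and the other alternatives stand beside it. On data simulated for siHsf1 in LacZ, the fit was run with genes changed by known folds. The simulated libraries were scaled by their size, with a smaller spread than the real ones after spike-in scaling. The check therefore does not cover the spike-in calls. A count of 0 allows 0.368 to 0.812 CPM. Levels used log2 CPM with a prior count of 2.

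Named peaks were the 5 tallest near starts and 5 tallest elsewhere, with those at Myc and Hsf1. Named genes were Myc, Hsf1, up to 10 largest called fold changes in each direction among coding genes with mean log2 CPM of at least 2 and groups apart, and up to 4 genes of smallest p per list. The members, gene lists and rules were chosen with earlier results of these data known. RNA samples for Myc knockdown and the FPKM table were not analysed here, and 1 named gene is not reported here. Of chromosome 15 genes, 761 have a RefSeq promoter entry.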

Additional observations from a re-analysis of the deposited data

Results flagged for a closer look

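Under TMM scaling, 4 of 37 named genes lay on opposite sides of their controls after Hsf1 knockdown in the 2 lines. Every siHsf1 library lay on one side of the siControl libraries in LacZ and on the other side in GCN5. Many of the 37 were named for groups apart or small p in LacZ, so that part of the rule was met by selection. The share of all genes that meets the rule was not computed. With TMM, 22% of all genes were called for the interaction. The interaction of knockdown and line, on the log2 scale, was 0.88 for Myc (edgeR adjusted p = 2.43e-06), 0.77 for Hnrnpa1 (edgeR adjusted p = 2.99e-07), 0.67 for Xrcc6 (edgeR adjusted p = 4.71e-06) and -1.51 for Apol9b (edgeR adjusted p = 3.16e-10). Within the GCN5 line none of the 4 was called, with TMM log2 fold changes of 0.28 for Myc, 0.08 for Hnrnpa1, 0.09 for Xrcc6 and -0.12 for Apol9b. With spike-in scaling the interaction was not called for any of them, with edgeR adjusted p-values of 0.39 for Myc, 0.483 for Hnrnpa1, 0.559 for Xrcc6 and 0.439 for Apol9b. The look under TMM was chosen after the values were seen.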

How the results depend on the processing

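Chromosome 15 kept the highest density with peaks of all widths (2.22 times the median of the others) and among peaks at or above the autosomal median height (2.98). The ratio was 1.26 with peaks under 2000 bp, where it was the 5th densest, and 1.49 with peaks at most 1000 bp apart counted as 1, where it was the 4th. Counting length from the first base gave 2.02. The share near starts was 7.43% with all widths, where it was the 14th highest, 2.77% under 2000 bp, 5.96% for the taller peaks, 4.81% and 13.1% with 500 and 5000 bp windows, 2.69% for protein-coding starts, 2.47% by midpoints and 6.27% with the RefSeq promoter starts, each the lowest of 19, the last an alternative chosen after seeing the data. Median height was 8 steps with all widths and 8 for the taller peaks. The level difference of 1.02 log2 CPM was 2.39 without the filter and 1.11 per kb, and 0.996 to 1.04 leaving out a library. Median heights under 2000 bp, and the level with a prior count of 0.5, moved by less than their spread.

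Called chromosome 15 genes for siHsf1 in LacZ numbered 250 with TMM, 225 with DESeq2 and 16 without the filter, and 2 to 144 with 1 library left out (214 to 250 with TMM). For siHsf1 in GCN5 they numbered 2 with TMM, 3 with DESeq2, and 0 in every leave-one-out run (1 to 7 with TMM). Between the lines there were 69 with TMM, 57 with DESeq2 and 6 to 24 leaving out a library (51 to 73 with TMM). The interaction gave 144, 128 and 0 to 10 (122 to 162 with TMM). The replicate numbers did not pair the libraries, whose same-numbered correlations ran from -0.06 to 0.10. With replicate number as a block the counts were 164 in LacZ, 60 between lines and 32 for the interaction, and with TMM and the block 259, 2, 73 and 156. Hsf1 between the lines had log2 fold changes of 0.018 with TMM, 0.013 with DESeq2 and 0.018 with TMM and the block, against -0.37. The causes were not tested.

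Peak values have no replicates, and merging of dense peaks limits counts on chromosome 15. With 3 libraries per group and a varying spike-in share, calls with spike-in scaling depend on single libraries.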
